A study of Mus musculus with 6 samples.

Results

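Genes of the oligodendrocyte lineage were followed by RNA sequencing in anterior cingulate cortex from BALB/c mice. The 34 genes were taken from the deposited count table of 45777 genes by their symbols, and all 34 were found in it. They comprised 3 precursor genes, 3 transcription factors present throughout the lineage, 6 genes of newly formed oligodendrocytes and 22 genes of mature, myelinating cells. 3 stress libraries came from mice given 5 days of social defeat, repeated attack by a dominant mouse, and 3 non-stress libraries came from mice without it. All were of the same strain and region, no further treatment or allele is named in the labels, and the sources used here give neither age nor sex. Whether the libraries are separate animals is not labelled, so the p-values speak to the spread among these 6 samples alone, and that spread may be technical.

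Oligodendrocytes wrap axons of the central nervous system in myelin, a stack of membrane that speeds conduction. They arise from dividing precursors that carry the PDGF receptor Pdgfra, pass through a short-lived premyelinating stage, and then switch on the structural proteins and lipid enzymes of the sheath. The transcription factors Olig1, Olig2 and Sox10 act from the precursor onward, and Myrf is required for the myelin genes in mature cells. The cortical grey matter holds fewer of these cells than the white matter beneath it, and precursors persist there in the adult.

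Total counts lay between 41623899 and 44882821 in the stress libraries and between 41976809 and 47212982 in the non-stress libraries. On principal component 1 of 19227 tested genes, which held 34.5% of the variance, the stress libraries lay at -20.4 to -14.9 and non-stress 1 at -11.7, while non-stress 2 and 3 lay at 37.4 and 27.4. The non-stress libraries were thus not alike, and results are given below with and without non-stress 1 where that library decides them. Markers of the cortex were present in all libraries: summed over 5 excitatory neuron genes, 1860 to 1877 CPM (counts scaled to library size) in stress and 1815 to 1969 CPM in non-stress. Among markers of Schwann cells, which myelinate peripheral nerve and share Mbp and Mag with oligodendrocytes, Pmp2 had 0 counts in every library, Prx had 4 to 9 counts in stress and 7 to 11 counts in non-stress, and Ncmap had 33, 49 and 39 counts in stress and 44, 54 and 42 counts in non-stress.

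Of the 34 genes, 0 passed in the comparison of stress with non-stress (edgeR, quasi-likelihood; Benjamini-Hochberg adjusted p under 0.05), against 0.0052% of all genes tested. The smallest adjusted p among them was 0.309, for the secreted ligand gene Bmp4. At an unadjusted p under 0.05 there were 4 lower genes (Bmp4, Gpr37, Sox10 and Myrf), where the share over all genes was 6.27%, and 1 higher gene (Ugt8a), where it was 5.8%. Together these were 14.7% of the 34 genes, close to the 12.1% of all genes. DESeq2's Wald test called 0 higher and 0 lower, against 0.312% and 0.348% of all genes (0.661% in all). Bmp4 was not judged in that count. DESeq2 gave it an unadjusted p = 7.29e-05 and returned the adjusted one as missing, so it was neither called nor failed.

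Median log2 fold change, stress over non-stress, was -0.06 over the 34 genes and 0.00 over all genes tested, and 25 of 34 genes lay below 0 (73.5%, against 50.2% of all genes). By stage, the median was 0.10 for the precursor genes, 0.00 for the 3 lineage factors, -0.12 for the genes of newly formed cells and -0.06 for the mature genes. The mature median was -0.157 without non-stress 1, -0.016 without non-stress 2 and -0.028 without non-stress 3. The newly formed median was -0.182 without stress 3 and -0.079 without stress 1. The stress values lay wholly above the non-stress values in 4 genes, where the share over all genes was 8.7%, and wholly below them in 3 genes, where it was 9.2%. These 7 genes were 20.6% of the 34, against 17.9% of all genes. Without non-stress 1, edgeR called 4 of the 34 genes lower (Bmp4, Gpr37, Trf and Mobp) and 0 higher, against 0.913% and 2.94% of all genes in that fit. All other settings called 0 of the 34 genes in either direction, with Bmp4 left unjudged by DESeq2. There the higher share of all genes was 0.00336% with no filter, 0.0066% with at least 50 counts in 3 libraries, 0.0104% with limma-voom and with the replicate block, and 0.0208% with quality weights. It was 0.0051% without non-stress 2, stress 2 or stress 3 and 0.00508% without non-stress 3. The lower share was 0.052% with quality weights, 0.0051% without non-stress 2, 0.0102% without stress 1 and 0.0156% with GC and length trends taken out.

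**Figure D1:**
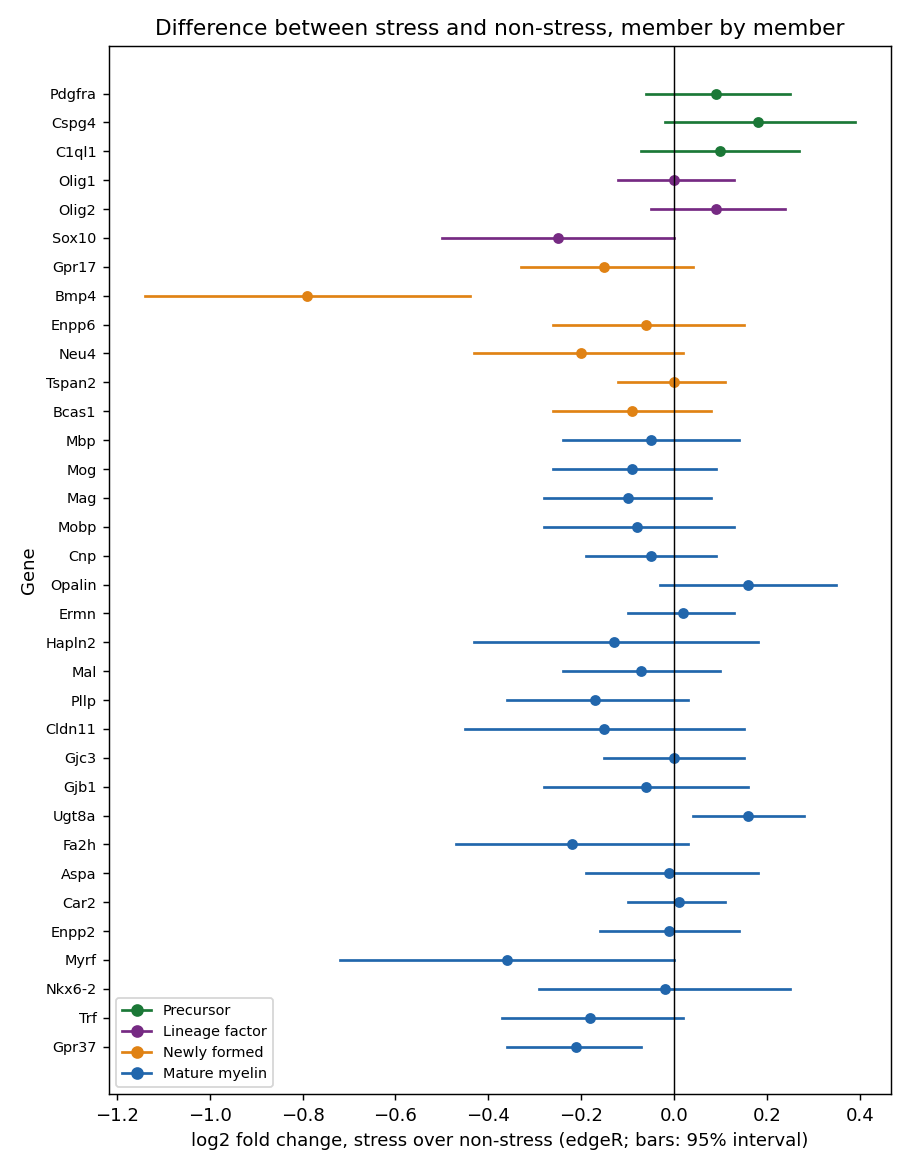
Log2 fold change of each gene, stress over non-stress, from edgeR (points) with its 95% interval (bars), coloured by stage. The intervals of Bmp4, Gpr37 and Ugt8a leave out 0, those of Sox10 and Myrf end at it, and Bmp4 stands apart at -0.79.

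All 3 precursor genes had higher values in every stress library than in any non-stress library, as did 8.7% of all genes tested, and none of the 3 passed the test. Pdgfra, the receptor through which platelet-derived growth factor keeps precursors dividing, stood at 15.5, 15.5 and 14.8 CPM in stress 1 to 3, against 14, 14.6 and 14.4 CPM in non-stress 1 to 3. Its log2 fold change was 0.09 (SE 0.07; edgeR adjusted p = 0.594). Cspg4 encodes the NG2 proteoglycan of the precursor surface and was at 6.78, 6.82 and 6.82 CPM in stress, against 6, 6.13 and 5.85 CPM in non-stress. These levels rest on few counts, 281, 297 and 306 in stress and 259, 288 and 246 in non-stress. The log2 fold change of Cspg4 was 0.18 (95% interval -0.02 to 0.39; edgeR adjusted p = 0.456). C1ql1, a secreted C1q-related protein of precursors, was at 11.6, 11.6 and 11.9 CPM in stress, against 11, 10.5 and 11.1 CPM in non-stress (log2 fold change 0.10; edgeR adjusted p = 0.598).

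Pdgfra is also expressed by meningeal fibroblasts, and Cspg4 by the mural cells of small vessels. Summed over 7 fibroblast markers, the level was 12.7 to 14.5 CPM in stress and 9.45 to 14.8 CPM in non-stress, with non-stress 1 the highest of all. The 7 mural markers summed to 138 to 148 CPM in stress and 149 to 151 CPM in non-stress. The part of these cells in the precursor values was not tested. A further 10 precursor genes were listed for their known expression, with earlier results of these data known, and 0 passed edgeR's test. Their median log2 fold change was 0.07, with 6 above 0 and 4 below it, down to -0.38. Relative to the mean of the 6 libraries, their median was 0.06, 0.02 and 0.04 in stress 1 to 3 on the log2 scale. In non-stress 1 to 3 it was 0.14, -0.18 and -0.06, so non-stress 1 lay above every stress library. Xylt1, which starts the sugar chains of proteoglycans, was at 9.29, 10.3 and 11.8 CPM in stress and 9.20, 7.49 and 7.87 CPM in non-stress (log2 fold change 0.36; edgeR adjusted p = 0.351). The groups did not overlap, but the gap between stress 1 and non-stress 1 was narrow. Pcdh15, a protocadherin, averaged 13.4 ± 0.51 CPM in stress and 10.3 ± 3.64 CPM in non-stress (SD, n = 3; edgeR adjusted p = 0.461), with non-stress 1 above all stress libraries.

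The 3 transcription factors present at all stages had no common direction. Olig1 and Olig2, basic helix-loop-helix factors needed for the lineage, are neighbours on chromosome 16, with 41091 bases between them in GRCm38. Olig1 averaged 157 ± 4.61 CPM in stress and 157 ± 11.3 CPM in non-stress, with a 95% interval of the log2 fold change of -0.12 to 0.13. Olig2 averaged 30.0 ± 1.59 and 28.1 ± 1.30 CPM in stress and non-stress (log2 fold change 0.09; edgeR adjusted p = 0.571). Sox10, an HMG-box factor that binds many myelin genes, was at 13.5, 12.8 and 12.9 CPM in stress and 13.9, 18.4 and 14.2 CPM in non-stress. Every stress value lay below every non-stress value, but non-stress 2 stood well above the other two non-stress libraries. The log2 fold change was -0.25 (95% interval -0.50 to 0.00; edgeR adjusted p = 0.412). It was -0.10 without non-stress 2, -0.32 without non-stress 1 and -0.31 without non-stress 3.

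**Figure D2:**
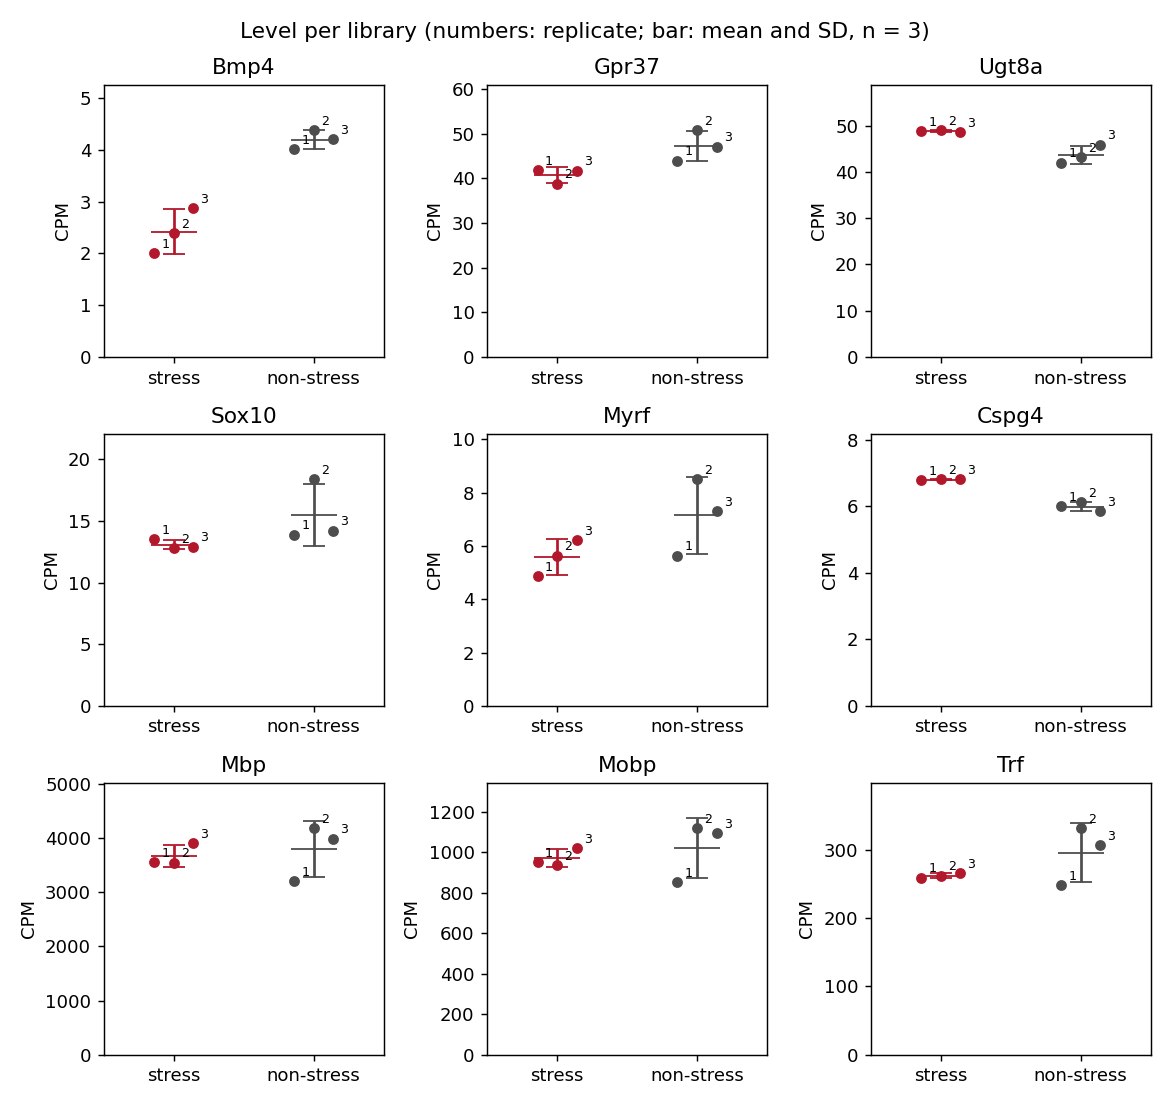
Level of 9 genes in CPM in each library (points, numbered by replicate), with the mean and SD of each group (n = 3); every vertical axis starts at 0. Bmp4 is lower in all 3 stress libraries, at 2.00 to 2.88 CPM, while Mbp, Mobp and Trf have their lowest and highest values within the non-stress group.

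Among the genes of newly formed oligodendrocytes, Bmp4 had the lowest ratio of stress to non-stress of all 34 genes. It encodes a bone morphogenetic protein, a secreted signal that holds precursors back from differentiation and that is itself transcribed in cells leaving the precursor state. The gene lies at chr14:46383525-46390669 (GRCm38), where its exons overlap those of Gm15217 on the other strand. It had 83, 104 and 129 counts in stress 1 to 3, or 2.00, 2.39 and 2.88 CPM, against 173, 206 and 177 counts in non-stress 1 to 3, or 4.01, 4.38 and 4.21 CPM. The groups did not overlap, and the stress libraries spread over a wider range than the non-stress ones. The log2 fold change was -0.79 (SE 0.16; 95% interval -1.14 to -0.44; 1.73-fold lower in stress; edgeR adjusted p = 0.309). By unadjusted p (0.000554) it ranked 33 of 19227 genes. It passed without non-stress 1 (edgeR adjusted p = 0.0266, log2 fold change -0.82), and under the other alternatives its adjusted p lay between 0.0899 (limma-voom with quality weights) and 0.732 (without stress 1), DESeq2 giving none.

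The other 5 genes of this stage had log2 fold changes between -0.20 and 0.00. Gpr17, a receptor that marks and restrains premyelinating cells, was at 19.7, 21.1 and 24.1 CPM in stress and 23.2, 24.8 and 24.0 CPM in non-stress. Its groups overlapped through stress 3 alone, and the log2 fold change was -0.15 (95% interval -0.33 to 0.04; edgeR adjusted p = 0.489). Neu4, a sialidase, was at 12.2, 11.3 and 14.2 CPM in stress and 15.0, 15.0 and 13.5 CPM in non-stress (log2 fold change -0.20; edgeR adjusted p = 0.446). For Bmp4, Gpr17 and Neu4 alike, stress 3 was the stress library nearest to the non-stress values. Enpp6, a choline phosphodiesterase of cells that are starting to myelinate, averaged 11.4 ± 1.05 CPM in stress and 11.8 ± 0.541 CPM in non-stress. Tspan2, a tetraspanin, averaged 87.7 ± 0.787 CPM in stress and 87.9 ± 5.01 CPM in non-stress, with a 95% interval of -0.12 to 0.11 on the log2 scale. Bcas1, a cytoplasmic protein of cells that are forming their first sheaths, averaged 134 ± 7.18 CPM in stress and 143 ± 15.3 CPM in non-stress (log2 fold change -0.09; edgeR adjusted p = 0.659).

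Among 7 further genes of newly formed cells that could be tested, 0 passed, and their median log2 fold change was -0.06. Itpr2, an intracellular calcium release channel, was at 11.3, 10.6 and 11.4 CPM in stress and 12.7, 12.5 and 13.0 CPM in non-stress. The groups did not overlap, and the log2 fold change was -0.20 (SE 0.08; edgeR adjusted p = 0.385). Fyn, a kinase that relays axonal contact to local myelin synthesis, averaged 176 ± 2.74 CPM in stress and 189 ± 9.80 CPM in non-stress (edgeR adjusted p = 0.433). Cemip2, a hyaluronidase-like membrane protein, averaged 10.5 ± 0.423 CPM in stress and 9.56 ± 0.824 CPM in non-stress (edgeR adjusted p = 0.58).

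**Figure D3:**
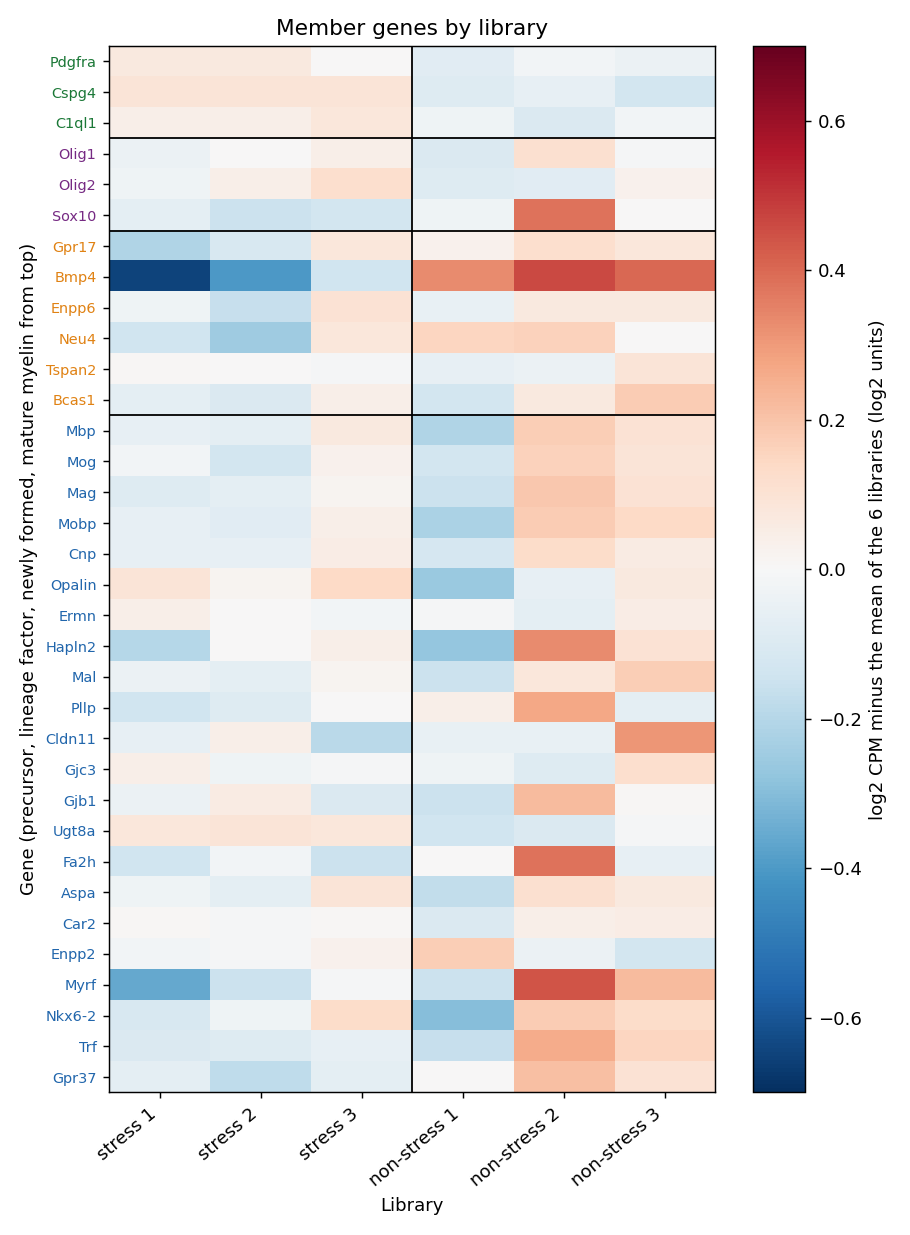
Log2 CPM of each gene minus its mean over the 6 libraries, one row a gene and one column a library, with stage by label colour. Non-stress 1 is blue and non-stress 2 red for most mature myelin genes. The strongest blue in the stress columns is that of Bmp4 in stress 1 and stress 2, followed by Myrf in stress 1.

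Mature myelin transcripts varied more among the non-stress libraries than among the stress libraries. Mbp, the myelin basic protein that holds the cytoplasmic faces of the sheath together, took 51.4% to 52.5% of the counts of all 34 genes in stress libraries and 50.2% to 52.5% in non-stress libraries. It stood at 3556, 3541 and 3909 CPM in stress, against 3205, 4186 and 3984 CPM in non-stress. The lowest and the highest library both belonged to the non-stress group, non-stress 2 being 1.31 times non-stress 1, while the stress libraries differed by at most 1.10 times. The log2 fold change was -0.05 (95% interval -0.24 to 0.14; edgeR adjusted p = 0.852). Mobp, a basic protein of the same cytoplasmic layer, was at 951, 936 and 1020 CPM in stress, against 851, 1119 and 1094 CPM in non-stress (log2 fold change -0.08; edgeR adjusted p = 0.759). Without non-stress 1 its log2 fold change was -0.19 (edgeR adjusted p = 0.0349), and without non-stress 2 it was 0.00. Mag, the adhesion molecule that faces the axon, was at 124, 126 and 134 CPM in stress, against 119, 151 and 142 CPM in non-stress (log2 fold change -0.10; edgeR adjusted p = 0.628). Without non-stress 1 the log2 fold change of Mag was -0.19 (edgeR adjusted p = 0.068), and without non-stress 2 it was -0.02.

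That pattern ran through the mature genes. In 22 of 22 the SD of log2 CPM was larger in the non-stress than in the stress group, against 65.3% of all genes tested, and the median SD was 0.066 in stress and 0.169 in non-stress. The 22 genes, like the 27 further mature genes below, were measured in the same 6 libraries and varied together. They are not independent observations of that spread. Over all genes the median SDs were 0.087 and 0.129. Non-stress 1 held the lowest value in 14 of the 22 genes and non-stress 2 the highest in 14. Relative to the mean of the 6 libraries, the median of the 22 genes was -0.06, -0.05 and 0.02 in stress 1 to 3 and -0.14, 0.17 and 0.10 in non-stress 1 to 3, on the log2 scale. The median of 27 further mature genes stood at -0.03, -0.05 and 0.01 in stress and -0.17, 0.14 and 0.10 in non-stress. In the astrocyte list Gfap, singled out after its values were seen, had 549, 544 and 650 counts in stress and 1148, 251 and 199 counts in non-stress, with non-stress 1 the highest where it was lowest for most mature myelin genes. Over the 7 astrocyte markers, Gfap included, the median deviation was -0.01, -0.03 and 0.04 in stress and -0.01, 0.07 and -0.01 in non-stress on the log2 scale. The part of Gfap-expressing cells in the result was not tested. In bulk tissue, fewer oligodendrocytes and less RNA per cell cannot be told apart.

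Of the other structural genes, Cnp, a phosphodiesterase of the non-compact cytoplasm, averaged 420 ± 19.6 CPM in stress and 434 ± 37.7 CPM in non-stress. Mog, an immunoglobulin-like protein of the outermost surface, averaged 71.6 ± 3.84 and 75.9 ± 7.83 CPM in stress and non-stress. Neither difference exceeded the SD of the non-stress libraries. Hapln2, a link protein at nodes of Ranvier, averaged 23.3 ± 2.03 CPM in stress and 25.4 ± 5.20 CPM in non-stress. Ermn, a cytoskeletal protein of mature cells, averaged 69.9 ± 1.58 CPM in stress and 69.1 ± 3.08 CPM in non-stress. Opalin, a membrane glycoprotein of the sheath, was at 29.0, 27.6 and 30.0 CPM in stress and 22.8, 26.2 and 28.5 CPM in non-stress (log2 fold change 0.16; edgeR adjusted p = 0.473). Opalin and Ermn were the members of this structural group above 0, and the other 6 lay below it.

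The 3 tetraspan membrane proteins had log2 fold changes of -0.07 for Mal, a lipid raft proteolipid, -0.17 for Pllp, the plasmolipin gene, and -0.15 for Cldn11, which forms the radial tight junction of the sheath. Pllp averaged 29.8 ± 1.47 CPM in stress and 33.5 ± 4.10 CPM in non-stress. Mal averaged 127 ± 4 and 134 ± 14.9 CPM in stress and non-stress, and Cldn11 averaged 5.40 ± 0.442 and 5.98 ± 0.913 CPM. The groups overlapped in all 3 genes, and single libraries set the values. Mal was at -0.16 without non-stress 1, -0.05 without non-stress 2 and -0.001 without non-stress 3. Pllp was at -0.06 without non-stress 2, but at -0.191 without non-stress 1 and -0.243 without non-stress 3. Cldn11 was at -0.017 without non-stress 3 and -0.09 without stress 3. It was at -0.208 without non-stress 1, -0.209 without non-stress 2 and -0.208 without stress 2. Of the connexin genes, Gjc3 averaged 30.5 ± 0.733 CPM in stress and 30.6 ± 2.31 CPM in non-stress, and Gjb1 averaged 16.7 ± 0.943 and 17.4 ± 2.23 CPM.

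Enzymes of sheath lipids pointed in different directions. Ugt8a, the galactosyltransferase that makes the main glycolipid of myelin, was at 48.8, 49.0 and 48.6 CPM in stress, against 42, 43.2 and 45.9 CPM in non-stress. All stress libraries lay above all non-stress libraries. The log2 fold change was 0.16 (SE 0.05; 95% interval 0.04 to 0.28; edgeR adjusted p = 0.351). Fa2h, which hydroxylates the fatty acid of the same glycolipids, was at 21.3, 23.1 and 21.1 CPM in stress, against 23.3, 30.5 and 22.4 CPM in non-stress (log2 fold change -0.22; edgeR adjusted p = 0.459). Non-stress 2 again stood apart, and without it the log2 fold change of Fa2h was -0.06. Without non-stress 1 that value was -0.28, and without non-stress 3 it was -0.30. Among 8 further enzymes of myelin lipids, 0 passed edgeR's test, and the median log2 fold change was 0.01. Gal3st1, which sulfates the product of Ugt8a, averaged 22.3 ± 2.55 CPM in stress and 21.0 ± 1.58 CPM in non-stress. Elovl7, a fatty acid elongase, averaged 22.2 ± 0.954 CPM in stress and 20.8 ± 1.37 CPM in non-stress, and Sptlc2, a subunit of the first enzyme of sphingolipid synthesis, averaged 25.6 ± 0.522 and 26.5 ± 1.04 CPM in stress and non-stress.

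Metabolic enzymes of the mature cells differed between groups by less than the SD of the non-stress libraries. Aspa, which releases acetate from N-acetylaspartate for lipid synthesis, averaged 31.7 ± 1.86 CPM in stress and 31.8 ± 3.24 CPM in non-stress. Car2, a carbonic anhydrase, averaged 355 ± 2.75 and 354 ± 20.4 CPM in stress and non-stress, with a 95% interval of -0.10 to 0.11 on the log2 scale. Enpp2, which makes the signalling lipid lysophosphatidic acid, was at 190, 191 and 198 CPM in stress and 216, 188 and 177 CPM in non-stress. It was the single mature gene with its highest value in non-stress 1. The choroid plexus, the epithelium that secretes cerebrospinal fluid, expresses Enpp2 strongly as well. Summed over 8 choroid plexus markers, the level was 12.5, 14 and 5.75 CPM in stress and 14.8, 9.40 and 9.77 CPM in non-stress. Ttr, the most abundant of them, had 156 to 462 counts in stress and 319 to 469 in non-stress. The part of that tissue in the Enpp2 values was not tested.

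Gpr37 and Trf had lower means in stress, and neither passed the test with all libraries. Gpr37, an orphan receptor that restrains oligodendrocyte differentiation and is also expressed by neurons, was at 41.9, 38.8 and 41.7 CPM in stress, against 44.0, 50.8 and 47.1 CPM in non-stress. Every stress value lay below every non-stress value, and the log2 fold change was -0.21 (SE 0.06; 95% interval -0.36 to -0.07; edgeR adjusted p = 0.345). Without non-stress 1 it was -0.26 (edgeR adjusted p = 0.0477), and without non-stress 2 it was -0.16. Trf, the transferrin gene that supplies iron for myelin enzymes, was at 259, 262 and 266 CPM in stress, against 248, 332 and 307 CPM in non-stress. Stress libraries spanned 1.03 times and non-stress libraries 1.34 times, with non-stress 1 below all stress values. The log2 fold change was -0.18 (edgeR adjusted p = 0.455), or -0.29 without non-stress 1 (edgeR adjusted p = 0.00581) and -0.08 without non-stress 2.

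Myrf, the membrane-bound transcription factor that switches on myelin genes, was at 4.87, 5.63 and 6.22 CPM in stress, against 5.63, 8.51 and 7.30 CPM in non-stress. The groups overlapped through non-stress 1. The log2 fold change was -0.36 (SE 0.16; 95% interval -0.72 to 0.00; edgeR adjusted p = 0.414). Without non-stress 1 it was -0.50 (edgeR adjusted p = 0.0658), and without non-stress 2 it was -0.21. Nkx6-2, a homeodomain factor of mature cells, averaged 25.6 ± 2.19 CPM in stress and 25.9 ± 4.51 CPM in non-stress. St18, a zinc finger factor among the further mature genes, averaged 3.35 ± 0.140 CPM in stress and 4.04 ± 0.297 CPM in non-stress (log2 fold change -0.27; edgeR adjusted p = 0.425). None of the 27 further mature genes passed the test, and 21 lay below 0 with a median of -0.06. Carns1, which makes the dipeptide carnosine, averaged 7.35 ± 0.429 CPM in stress and 9.06 ± 1.94 CPM in non-stress (log2 fold change -0.30; edgeR adjusted p = 0.44).

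Scaled to transcript length, the level of the 34 genes ran over a wide range. Mean CPM per kilobase of the longest transcript over the 6 libraries was 778 for Mbp, 303 for Mobp, 198 for Car2, 181 for Cnp and 109 for Trf. Below these stood Olig1 at 72.8, Enpp2 at 62.4 and Mag at 54.5, followed by Bcas1, Mal and Mog at 47.0, 46.9 and 43.3. The order of Bcas1 and Mal was not resolved by the spread between libraries. The lowest levels per kilobase belonged to Cspg4 at 0.788, Myrf at 1.12, Bmp4 at 1.60 and Pdgfra at 2.17. The 34 genes together took 0.689% to 0.743% of all counts in stress libraries and 0.640% to 0.793% in non-stress libraries.

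Promoter sequences were examined as a description, for genes of all stages. Their part in the shared variation of the mature genes across libraries was not tested. RefSeq windows on GRCm38.p6 were matched for 23 of the 34 genes, and the 250 bases before the start site were searched on both strands. The motifs were ACAAAG or ACAATG for SOX factors, CTGGCAC or CTGGTAC for MYRF, and CAGATG or CAGCTG for OLIG factors, none of which overlapped another in these windows. A SOX match was present in 39.1% of the 23 windows and in 23.0% of 17479 protein-coding promoters of the same length. A MYRF match was present in 4 of the 23 (Mag, Mog, Cnp and Hapln2), or 17.4%, against 5.7% of all promoters, and an OLIG match in 30.4%, against 22.7%. Printed below are the windows of Mobp, which held 6 SOX matches, of 3 structural genes with a MYRF match, and of Bmp4. They were chosen by their matches and do not stand for their stages. They run 5′ to 3′ on the gene's strand, with all matches in capitals.
Mobp (chr9:120149492-120149741, plus strand): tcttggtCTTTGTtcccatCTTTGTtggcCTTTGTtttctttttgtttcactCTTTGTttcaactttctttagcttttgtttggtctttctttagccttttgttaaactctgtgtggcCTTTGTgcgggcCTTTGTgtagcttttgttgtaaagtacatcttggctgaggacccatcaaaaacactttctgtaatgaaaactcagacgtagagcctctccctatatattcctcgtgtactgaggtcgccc
Mag (chr7:30914923-30915172, minus strand): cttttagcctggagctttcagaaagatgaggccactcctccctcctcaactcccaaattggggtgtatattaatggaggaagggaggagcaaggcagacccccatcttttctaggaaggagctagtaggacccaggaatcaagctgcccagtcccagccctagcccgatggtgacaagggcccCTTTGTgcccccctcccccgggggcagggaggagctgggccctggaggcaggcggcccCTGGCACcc
Mog (chr17:37023399-37023648, minus strand): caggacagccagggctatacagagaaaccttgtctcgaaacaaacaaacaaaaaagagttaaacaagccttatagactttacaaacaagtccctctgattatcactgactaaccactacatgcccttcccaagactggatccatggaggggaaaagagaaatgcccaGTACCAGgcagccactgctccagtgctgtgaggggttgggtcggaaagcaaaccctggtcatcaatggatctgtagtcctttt
Hapln2 (chr3:88027512-88027761, minus strand): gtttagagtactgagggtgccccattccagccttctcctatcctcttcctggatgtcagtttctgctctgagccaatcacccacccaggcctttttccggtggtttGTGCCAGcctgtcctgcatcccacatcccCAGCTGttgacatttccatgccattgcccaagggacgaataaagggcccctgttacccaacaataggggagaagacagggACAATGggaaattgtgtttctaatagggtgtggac
Bmp4 (chr14:46390670-46390919, minus strand): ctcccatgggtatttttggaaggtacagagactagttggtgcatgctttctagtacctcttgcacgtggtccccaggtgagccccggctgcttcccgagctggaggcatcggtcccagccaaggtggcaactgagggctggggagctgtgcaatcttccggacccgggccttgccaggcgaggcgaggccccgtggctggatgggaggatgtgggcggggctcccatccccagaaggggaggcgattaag

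In Mobp the SOX matches all read CTTTGT on the printed strand. Mag carried 1 SOX match and 1 MYRF match, Mog a MYRF match alone. Hapln2 carried matches to all 3 motif groups, and Bmp4 carried none. The mature genes Mal, Cldn11, Ugt8a, Pllp and Nkx6-2 carried none either. Enpp6 of newly formed cells and the lineage factor Olig2 each had a SOX match, so SOX matches did not separate the stages. OLIG matches were present in Pdgfra and Tspan2 as well as in mature genes. The 4 MYRF matches were all in mature genes, which make up 22 of the 34 genes, and their relation to stage was not tested. A match describes letters only and is not evidence of binding.

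Fold changes of all genes fell with GC content, and the 34 genes were read against that. The median log2 fold change of all genes was 0.091 below 42% GC and -0.094 at 58% GC or more. Across the 34 genes Pearson's r between GC content and log2 fold change was -0.15 and Spearman's rho -0.23, as a description over genes that share libraries, against -0.23 and -0.32 over 17313 genes. Ugt8a, at 38.0% GC, lay in the range where the median of all genes was above 0. Ermn, also at 38.0% GC, was at 0.02 and Aspa, at 41.4%, at -0.01, and the 3 members below 42% GC had a median of 0.017. Cspg4 and C1ql1, at 59.2% and 65.8% GC, lay above 0 where most genes lay below it. With smooth trends on GC content and transcript length taken out of each library, the log2 fold change was 0.28 for Cspg4 (edgeR adjusted p = 0.312), 0.17 for C1ql1 (0.475), 0.05 for Ugt8a (0.836), -0.19 for Gpr37 (0.299) and -0.77 for Bmp4 (0.213). In that fit Sox10 was at -0.13, Olig2 at 0.18 and Olig1 at 0.10, and none of the 34 genes was called.

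**Figure D4:**
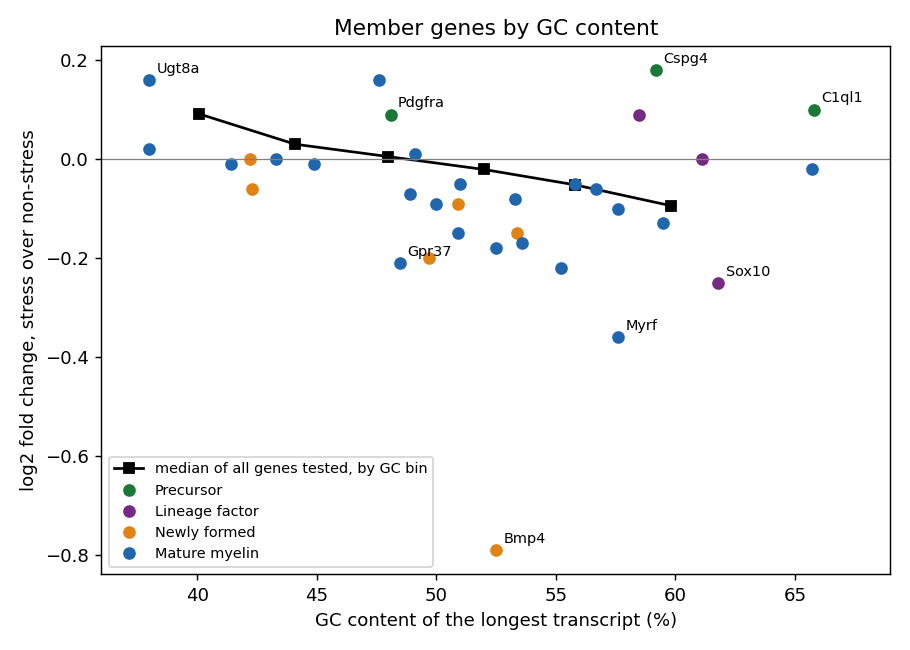
Log2 fold change of each gene, stress over non-stress, against the GC content of its longest transcript in percent (coloured points, by stage), with the median of all genes tested in bins of GC content (black squares, at the median GC of the bin). The black line falls from 0.091 to -0.094, and Bmp4 lies far below it at 52.5% GC.

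Genes that signal to the lineage or that build the axonal sites flanking myelin were examined as further lists. Of 15 signalling genes, 0 passed edgeR's test, with a median log2 fold change of -0.05. Hes5, a Notch target that restrains differentiation and is also strongly expressed in astrocytes, was at 29.7, 32.0 and 34.6 CPM in stress, against 37.5, 39.9 and 38.5 CPM in non-stress. The groups did not overlap (log2 fold change -0.27; SE 0.07; edgeR adjusted p = 0.344). The 7 astrocyte markers summed to 1409 to 1461 CPM in stress and 1426 to 1476 CPM in non-stress. Of these markers, 3 lay above 0 and 4 below, with log2 fold changes from -0.17 to 0.14. The part of astrocyte content in the Hes5 values was not tested. Nrg1, an axonal growth factor read by ErbB receptors, averaged 20.6 ± 0.584 CPM in stress and 18.0 ± 1.28 CPM in non-stress (edgeR adjusted p = 0.38). Notch1, a receptor that holds precursors back from maturation, averaged 6.45 ± 0.309 CPM in stress and 7.40 ± 0.846 CPM in non-stress (edgeR adjusted p = 0.492).

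Of 9 genes of nodes and their flanks, 0 passed edgeR's test, while 8 lay below 0 and the median log2 fold change was -0.21. 5 of them had an unadjusted p under 0.05, all lower in stress, where the share over all genes was 6.27%. This list was chosen with earlier results of these data known. Its counts are therefore not an independent comparison with the shares over all genes. Kcna2, a potassium channel subunit clustered beside the paranodal myelin loops, was at 99.1, 101 and 92.8 CPM in stress, against 115, 113 and 111 CPM in non-stress. Cntn2, its adhesion partner on axon and glia, was at 34.6, 35.4 and 36 CPM in stress, against 38.6, 47.6 and 43.5 CPM in non-stress. In both genes every stress library lay below every non-stress library. Log2 fold changes were -0.21 for Kcna2 and -0.29 for Cntn2, each with an edgeR adjusted p of 0.344, and -0.31 for Cntnap1, a paranodal axonal protein, with the same adjusted p. DESeq2 called Kcna2 (adjusted p = 0.0350), Cntn2 (0.0499) and Kcna1 (0.0499), against 0.348% of all genes called lower. Neurons transcribe most of these genes, and the summed level of 5 inhibitory neuron markers was 831 to 842 CPM in stress and 760 to 849 CPM in non-stress. That sum hides differences in both directions. Of the 5 markers, 2 lay above 0 and 3 below, with log2 fold changes from -0.49 to 0.27. The part of neuron content in the node genes was not tested.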

How the data were processed

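Total RNA of 6 samples went into SMARTer Ultra low and TruSeq libraries, per the labels' protocols. Trimmomatic 0.38, HISAT2 and StringTie were used with GRCm38 (mm10), per the submitters' processing notes; how reads were counted, and whether by strand, is not given. The authors deposited 1 table of whole-number counts per gene, not normalised, which was used unchanged. 13 of the 34 genes share exon bases with another GENCODE gene, 11 of them on the opposite strand, and such reads cannot be separated.

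Of 45777 genes, edgeR's filterByExpr kept 19227, including all 34. The comparison used the quasi-likelihood test of edgeR 4.0.16 (R 4.3.3; TMM factors 0.996 to 1.00; group the single term; two-sided), with Benjamini-Hochberg adjustment over all genes and a threshold of 0.05. Fold changes are stress over non-stress; intervals (95%) use the test's standard error. CPM use TMM-scaled library sizes; summed CPM use total counts. Log2 CPM had a prior count of 2. Alternatives were other size factors, other filters, DESeq2 1.42.0, limma-voom (limma 3.58.1), a replicate block, each library left out and, chosen after seeing the data, loess trends on GC content and length taken out (values for 90.0% of genes tested). Tests were tried on simulated data. All 34 genes are named, with the 3 of smallest p of each further list, of which some are not reported here; Gfap, Kcna1 and other markers were named after their values were seen. Genes and lists were chosen with earlier results of these data known. GC content and length are of the longest protein-coding GENCODE transcript; positions are RefSeq's. Counting limits cover counting error only.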

Additional observations from a re-analysis of the deposited data

How the results depend on the processing

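Across the alternatives, 0 of the 34 genes were called higher at an adjusted p under 0.05, and 0 were called lower, except without non-stress 1, where 4 were called lower (leaving out single libraries gave 0 to 4). The DESeq2 count leaves out Bmp4, for which that test returned no adjusted p. At an unadjusted p under 0.05 in edgeR, 1 gene was higher and 4 were lower. 21 of the 34 genes kept the sign of their log2 fold change under every alternative, among them Bmp4, Gpr37, Ugt8a, Sox10, Myrf, Trf and Mobp, where Mobp ended at 0.00 without non-stress 2. The other 13 changed sign in at least 1 setting, and none of them was called in either direction. Leaving out single libraries, the log2 fold change ranged from -0.048 to 0.059 for Olig1, -0.125 to 0.010 for Enpp6, -0.031 to 0.044 for Tspan2, -0.156 to 0.032 for Mbp, -0.115 to 0.009 for Cnp and -0.012 to 0.049 for Ermn. It ranged from -0.275 to 0.024 for Hapln2, -0.045 to 0.058 for Gjc3, -0.142 to 0.048 for Gjb1, -0.089 to 0.050 for Aspa, -0.042 to 0.033 for Car2, -0.069 to 0.079 for Enpp2 and -0.158 to 0.073 for Nkx6-2. With GC content and length trends taken out, values of the opposite sign were -0.005 for Car2, 0.016 for Cnp, -0.093 for Ermn and 0.040 for Nkx6-2. With limma-voom and quality weights they were -0.010 for Car2, 0.031 for Enpp2 and -0.002 for Ermn, and with plain limma-voom 0.001 for Gjc3. With at least 50 counts in 3 libraries they were 0.004 for Gjc3 and 0.004 for Tspan2, and with no filter -0.003 for Olig1. The causes were not tested beyond the settings' own construction. The median of the 34 genes stayed below 0, between -0.156 without non-stress 1 and -0.020 without non-stress 2.

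Replicate numbers are shared between groups, but the labels tie them to nothing. Same-numbered libraries had correlations of 0.02, -0.03 and 0.02 between their deviations from the group means, and 2 of 6 libraries correlated best with their own number. With the replicate block, 0 of the 34 genes were called higher and 0 lower. The median of the 3 precursor genes moved to 0.172 with GC content and length trends taken out.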
